A study of Homo sapiens with 12 samples.

Results

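The response to Nutlin was measured in HepG2 cells that carry a small hairpin RNA against p53. It was taken as 2 arrays of sh-p53 cells treated with Nutlin (10 uM, 24 h) minus 2 arrays of sh-p53 cells given the vehicle DMSO for the same time, over every gene named by a probe set with 1 gene symbol. That gave 18417 genes, of which 13813 were bright enough to test, from 4 of the series' 12 arrays. HepG2 is a human hepatoma line with wild-type p53 and many hepatocyte functions. The comparison line, sh-con, carries a non-relevant hairpin, and its 2 DMSO and 2 Nutlin arrays (same dose and time) gave the response without the p53 hairpin. The remaining 4 arrays, both lines with the AICAR nucleoside at 0.5 mM for 24 h, entered the fit for its estimate of the spread. The cells of each group were biological duplicates from separate wells, and each hairpin is represented by 1 line, so an effect of the hairpin and a difference between the 2 lines cannot be told apart.

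p53 is a transcription factor that is kept scarce by MDM2, a ubiquitin ligase that binds it and marks it for degradation. Nutlin occupies the p53-binding pocket of MDM2 and so lets p53 accumulate without DNA damage. Accumulated p53 raises transcription of genes for cell cycle arrest, apoptosis, DNA repair and metabolism, MDM2 itself among them, and through the CDK inhibitor p21, the product of CDKN1A, it switches the proliferation genes off by way of the DREAM repressor complex. A hairpin lowers its target without deleting the gene, and the comparison asks which transcripts still differ between Nutlin and DMSO in such cells.

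Values are on the log2 scale of RMA, a summary of the probes of a set after background correction and quantile normalisation, so a difference of 1 is a 2-fold change. They ran from 2.14 to 14.33. Genes whose mean over all arrays lay under 4.58, the 25th percentile, were not tested. A gene is named called where its limma adjusted p (Benjamini-Hochberg over the 13813 genes) was under 0.05. The duplicates correlated at 0.983 to 0.994 in the 6 groups, and within the sh-p53 Nutlin pair the SD of the difference was 0.254, against 0.204 in the sh-p53 DMSO pair. The 10 HepG2 markers measured, ALB, AFP and APOB among them, lay between 10.8 and 12.7 in both sh-p53 groups with none called. Of the markers of other cells, 6 of 8 endothelial, 3 of 8 fibroblast, 3 of 6 leukocyte and 2 of 9 cholangiocyte genes lay under the dim level. The other members were brighter. The highest means in sh-p53 with Nutlin were 5.75 (ENG), 8.36 (ACTA2), 12.48 (LYZ) and 10.61 (EPCAM), in the same order of lists.

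With Nutlin, 11 genes rose in sh-p53 cells, 0.0796% of the genes tested, and 7 of them rose at least 2-fold (0.0507%). They were CDKN1A, TP53INP1, ACTA2, MDM2, SPATA18, CYGB, SULT2A1, ZMAT3, SESN1, SULF2 and MR1. For each of them both Nutlin arrays lay above both DMSO arrays, which was also so for 14.2% of all genes tested. The calls were made on these same arrays, so this separation is not further support. No gene fell by the limma test. At an unadjusted p under 0.05, 564 genes were lower (4.08%) and 296 higher (2.14%), and the lowest adjusted p among lower genes was 0.0683. The counts depended on how the spread was estimated. With only the 4 sh-p53 arrays of the comparison in the limma fit, 29 genes were called higher, the 11 among them. Called lower were 38, with 17 of these in the cell cycle lists. Those lists, of G1 and E2F, replication, recombination, mitosis and histone genes, held 31, 45, 17, 65 and 38 of the 13813 genes tested. In sh-con cells the same compound gave 1563 higher genes (11.3%) and 2616 lower genes (18.9%).

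**Figure D1:**
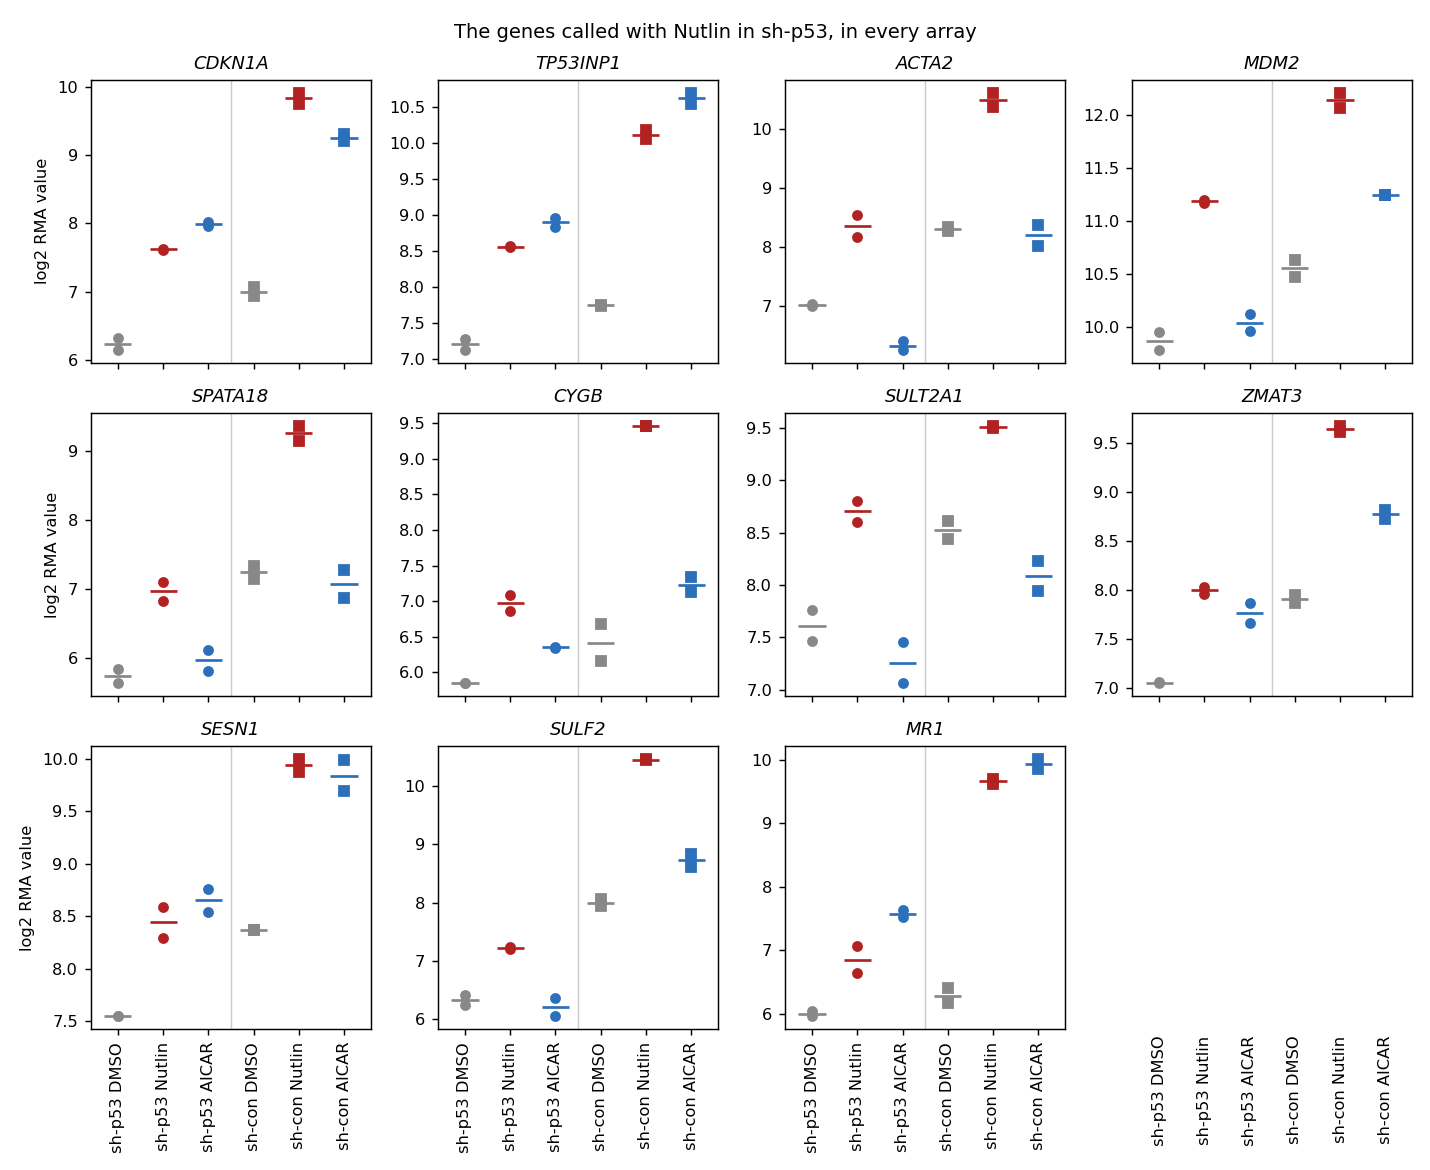
Log2 RMA values of the 11 genes called with Nutlin in sh-p53, 1 panel per gene with its own vertical scale. Points are single arrays (circles sh-p53, squares sh-con; grey DMSO, red Nutlin, blue AICAR) and short lines are group means; in sh-p53 both Nutlin points lie above both DMSO points in all 11 panels, and both lie below the sh-con Nutlin points.

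The feedback and arrest genes of p53 held 4 of the 11. CDKN1A, which encodes the CDK inhibitor p21, read 6.14 and 6.32 in DMSO and 7.61 and 7.63 with Nutlin. The duplicates lay close together and the groups far apart. It rose by 1.39 ± 0.13 (log2, SE, 2 arrays against 2), or 2.62-fold, with a limma adjusted p of 6.67e-05. MDM2, the p53 inhibitor that Nutlin binds, read 9.78 and 9.96 in DMSO and 11.20 and 11.17 with Nutlin. Its rise was 1.32 ± 0.14 (2.49-fold, limma adjusted p = 9.08e-05). TP53INP1, a nuclear protein that promotes p53 phosphorylation and autophagy, went from 7.12 and 7.28 to 8.55 and 8.57, a rise of 1.36 ± 0.13. ZMAT3, an RNA-binding zinc finger protein, read 7.05 and 7.06 in DMSO and 8.03 and 7.96 with Nutlin, a rise of 0.94 ± 0.13. In these genes the 2 groups were separated by several times the gap within either pair.

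The promoters of MDM2 and SESN1 are shown because they are p53 targets called in sh-p53 whose windows held matches to the p53 full-site consensus, the 20-base motif of 2 half-sites with no spacer, searched on both strands by letter mismatches. The sequences here are the 150 bases before the start of a RefSeq transcript (GRCh38.p14), written 5′ to 3′ on the gene's strand, and the capitals mark matches with at most 3 mismatches. For MDM2 the stretch is chr12:68808867-68809016 (plus strand), in front of one of its starts, with matches beginning 94 and 56 bases before the start at 2 and 3 mismatches. For SESN1 it is chr6:109008989-109009138 (minus strand), with a match 49 bases before the start at 3 mismatches.
MDM2: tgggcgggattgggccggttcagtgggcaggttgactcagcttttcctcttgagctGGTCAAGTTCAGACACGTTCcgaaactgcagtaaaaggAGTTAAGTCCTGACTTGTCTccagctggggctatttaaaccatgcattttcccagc
SESN1: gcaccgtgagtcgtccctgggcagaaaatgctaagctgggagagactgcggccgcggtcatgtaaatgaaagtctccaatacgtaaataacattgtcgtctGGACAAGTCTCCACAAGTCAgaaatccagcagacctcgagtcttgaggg
Over all 35116 promoter windows of 300 bases in the table, which run from 250 bases before to 50 after a start, a match with at most 2 mismatches stood in 0.649% and one with at most 3 in 5.2%. Of the 11 called genes 9 had an entry, with 20 windows in all, and 3 windows held a match with at most 2 mismatches and 6 with at most 3; the pair of MDM2 windows that hold one overlap. The CDKN1A window came no closer than 5 mismatches, which says only that these letters are not in that window. A match describes letters and no binding was measured.

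Among the metabolic and other targets of p53, SESN1 and SPATA18 were called. SESN1, a sestrin that restrains mTORC1 signalling, read 7.55 and 7.55 in DMSO and 8.59 and 8.30 with Nutlin, a rise of 0.90 ± 0.15 (limma adjusted p = 0.0181). SPATA18, also known as Mieap, takes part in mitochondrial quality control. Its values were 5.84 and 5.63 in DMSO against 7.10 and 6.82 with Nutlin, a rise of 1.23 ± 0.17 (limma adjusted p = 0.00324). The Nutlin arrays differed from each other by more than the DMSO arrays did in both genes, and the groups did not overlap.

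The other 5 called genes were in none of the p53 target lists. ACTA2, smooth muscle actin, read 7.03 and 6.99 in DMSO and 8.54 and 8.17 with Nutlin, a rise of 1.35 ± 0.16. In the RefSeq table its neighbour is FAS, the death receptor, which read 6.27 and 6.25 in DMSO and 6.99 and 7.0 with Nutlin (difference 0.74 ± 0.15, limma adjusted p = 0.0948). The window at one of the ACTA2 starts held a p53 match with 2 mismatches at chr10:88991309-88991328 (minus strand), from 9 bases after the start. The window at the other ACTA2 start came no closer than 4 mismatches. FAS is the next gene, so the match is not assigned to ACTA2 alone. The site is shown because ACTA2 is the called gene outside the target lists with the closest match (capitals mark the match).
ACTA2 site: TGGCTTGTCAGGGCTTGTCC
ACTA2 also marks fibroblasts and stellate cells. Of the other 7 genes of that marker list 4 were bright enough to test, with no call in sh-p53. The collagen gene COL1A1 read 6.26 and 6.23 in DMSO and 6.23 and 6.61 with Nutlin, while the matrix proteoglycan genes LUM and DCN stayed between 2.88 and 3.32 in those arrays.

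CYGB encodes cytoglobin, a globin of fibroblast-like cells and the liver's stellate cells. It read 5.85 in both DMSO arrays and 6.86 and 7.08 with Nutlin, a rise of 1.12 ± 0.16 (limma adjusted p = 0.00425). SULT2A1, the hepatic sulfotransferase of steroids and bile acids, read 7.47 and 7.76 in DMSO and 8.80 and 8.60 with Nutlin. Its rise was 1.09 ± 0.16 (limma adjusted p = 0.00619). SULF2, an extracellular enzyme that removes sulfate from heparan sulfate chains, went from 6.24 and 6.41 to 7.23 and 7.20, a rise of 0.89 ± 0.15. MR1, which presents vitamin B metabolites to MAIT cells, read 6.05 and 5.96 in DMSO and 7.07 and 6.64 with Nutlin. Its rise of 0.85 ± 0.15 was the smallest called, with a limma adjusted p of 0.0459. The nearest genes outside the threshold were ANKRD20A8P, a pseudogene, at 0.057 and RPS27L, a ribosomal protein-like p53 target, at 0.0598.

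The calls did not rest equally on all arrays. CDKN1A, TP53INP1, ACTA2 and MDM2 were called under each of 12 alternative settings that keep the threshold, including with any of the 4 sh-p53 arrays left out. With 1 array left out, 5 to 9 genes were called, all of them among the 11: 5 without Nutlin array 1, 9 without Nutlin array 2, 5 without DMSO array 1 and 5 without DMSO array 2. SULF2 was lost with each of the 4 arrays left out, SESN1, ZMAT3, CYGB and MR1 with 3 of them, and SPATA18 and SULT2A1 with 2. MR1 was also lost under 3 settings that keep all arrays (no filter, quantile normalisation again and arrays centred on their medians), and SESN1 under the last of these.

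Each of the 11 genes was also called higher in sh-con, against 11.3% of all genes, and 10 of them had the larger fitted rise there. The difference between the lines was tested as the interaction in limma, with no array shared between the responses. It found a smaller rise in sh-p53 for 7 genes, against 2.73% of all genes called in that direction. MR1 had the widest gap, with a rise of 0.85 in sh-p53 and 3.37 in sh-con, a difference of -2.52 (95% interval -2.98 to -2.06, limma adjusted p = 3.37e-07). CYGB rose by 1.12 and 3.05, a difference of -1.93, and SULF2 by 0.89 and 2.46, a difference of -1.57. CDKN1A rose 2.62-fold in sh-p53 and 7.18-fold in sh-con, a difference of -1.45 (95% interval -1.86 to -1.05). TP53INP1, ACTA2 and ZMAT3 differed by -1.01, -0.85 and -0.79.

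For 4 genes the difference did not pass the test. MDM2 rose by 1.32 in sh-p53 and 1.59 in sh-con, and the 95% interval of the difference ran from -0.68 to 0.13 (limma adjusted p = 0.481). SULT2A1 rose by 1.09 and 0.99, with an interval from -0.39 to 0.59 (limma adjusted p = 0.854), and it was the one called gene whose fitted rise was larger in sh-p53. SPATA18 (1.23 against 2.01, interval -1.29 to -0.28) and SESN1 (0.90 against 1.57, interval -1.12 to -0.23) had limma adjusted p of 0.0572 and 0.063. Both intervals, which are not adjusted for the number of genes, lay below 0.

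The 11 genes also stood lower before treatment. Both sh-p53 DMSO arrays lay below both sh-con DMSO arrays for 11 of 11, against 20.6% of all genes tested. The sh-p53 DMSO and Nutlin arrays also entered the call, which favours genes that read low in the former and high in the latter. With Nutlin, both sh-p53 arrays lay above both untreated sh-con arrays for 6 of the 11 (16.1% of all genes), CDKN1A, TP53INP1, MDM2, CYGB, ZMAT3 and MR1. ACTA2, SULT2A1 and SESN1 came within or across the sh-con DMSO values. SPATA18 at 7.10 and 6.82 stayed under the 7.34 and 7.14 of untreated sh-con cells, and SULF2 at 7.23 and 7.20 under their 8.06 and 7.94. Against sh-con cells with Nutlin, the sh-p53 Nutlin arrays were lower for 11 of 11 (28.7% of all genes).

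**Figure D2:**
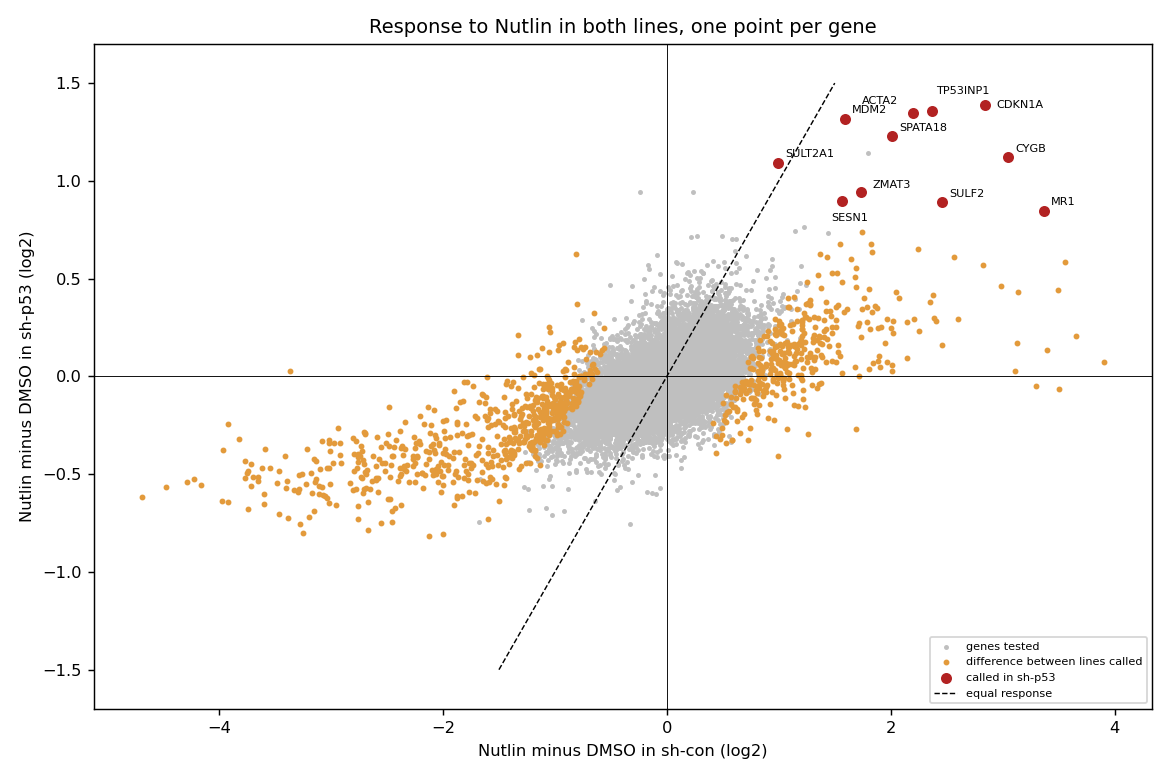
Difference between Nutlin and DMSO (log2) in sh-con on the horizontal axis and sh-p53 on the vertical axis for the 13813 genes tested; the vertical axis is stretched relative to the horizontal one. Red points are the 11 genes called in sh-p53, orange points the 1022 genes whose response differed between the lines, and the dashed line marks equal responses; most strong sh-con responses, up and down, lie close to 0 but on the same side of it in sh-p53.

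The wider p53 target set lay above DMSO in sh-p53 with few calls. Of 91 listed p53 targets 84 were measured and 81 were bright enough to test, and 6 were called (against 0.0796% of all genes). A further count at unadjusted p under 0.05 gave 33 higher and 2 lower, against 2.14% and 4.08% of all genes. Both Nutlin arrays were above both DMSO arrays in 51 and below in 6, against 14.2% and 20.7% of all genes. The median difference was 0.24, against -0.02 over all genes. With 1 array left out the median ran from 0.18 to 0.30. In sh-con 66 of the 81 were called higher and 1 lower, with a median of 0.88, against 11.3% and 18.9% of all genes. The response was called lower in sh-p53 than in sh-con for 33 (2.73% of all genes) and higher for 1 (4.67%).

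Among the 5 groups of p53 targets, the arrest and feedback genes had the highest median and the most calls. Of 17 tested, 4 were called and 13 were not, both Nutlin arrays were above in 16 (14.2% of all genes), and the median was 0.48, against 1.19 in sh-con. Among the genes not called, RPS27L read 7.90 and 8.14 in DMSO and 8.92 and 8.65 with Nutlin (difference 0.77). PLK2, a polo-like kinase of the stress response, read 6.29 and 6.44 against 7.33 and 6.89 (0.74, limma adjusted p = 0.157). PLK3, its relative, read 6.39 and 6.42 against 7.19 and 6.96 (0.67). GDF15, a secreted stress cytokine, read 10.32 and 10.35 against 11.10 and 10.68 (0.56, limma adjusted p = 0.279). None of these 4 groups overlapped, and Nutlin array 1 was the higher of its pair in each. The phosphatase gene PPM1D, the growth arrest gene GADD45A, the cyclin gene CCNG1, PHLDA3, TRIAP1, PTCHD4, SERTAD1 and ATF3 had differences from 0.19 to 0.48, and SFN, which encodes 14-3-3 sigma, was the one member on the negative side at -0.14.

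The apoptosis and death receptor targets held no call among 17 tested, against 0.0796% of all genes. Their median was 0.16, against 0.66 in sh-con, with 4 higher at unadjusted p under 0.05 (2.14% of all genes). FAS at 0.74 and EDA2R, a receptor of the TNF family, at 0.73 (5.38 and 5.61 in DMSO, 6.16 and 6.29 with Nutlin, limma adjusted p = 0.126) were the furthest. The nuclease gene AEN followed at 0.40. Among the mitochondrial effectors BAX differed by 0.31, the fourth highest of the list, while BBC3 (PUMA) and PMAIP1 (NOXA) differed by 0.12 each with overlapping arrays. The TRAIL receptor genes TNFRSF10A and TNFRSF10B differed by -0.01 and 0.24, and APAF1, the scaffold of the apoptosome, by -0.01 against 1.04 in sh-con. PERP, PIDD1, NINJ1, IKBIP, TNFRSF10D and TRAF4 lay from 0.04 to 0.28, and BID and CASP10 at -0.04.

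Of 7 DNA repair targets tested 0 were called, against 0.0796% of all genes, and the median was 0.16. They were led by RRM2B, the p53-inducible ribonucleotide reductase subunit, at 0.65 (7.45 and 7.71 in DMSO, 8.39 and 8.07 with Nutlin). The translesion polymerase gene POLH differed by 0.53 and DDB2, a sensor of UV damage, by 0.42. XPC differed by 0.10, REV3L by 0.16, and PCNA, the sliding clamp of replication, by -0.12. FANCC, of the Fanconi core complex, read 7.11 and 7.11 in DMSO and 6.88 and 6.53 with Nutlin (difference -0.41, limma adjusted p = 0.661).

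Of 18 metabolism and redox targets tested, SESN1 was the one called, and the median was 0.20. TIGAR, a phosphatase that slows glycolysis, read 7.06 and 7.50 against 8.14 and 7.69 (0.64, limma adjusted p = 0.324), and ISCU, the iron-sulfur cluster scaffold, 7.87 and 7.97 against 8.58 and 8.39 (0.56). CES2, CMBL, FBXO22 and SESN2 had differences of 0.49, 0.43, 0.34 and 0.30. GPX1, SLC12A4, ALDH4A1, PANK1, PRKAB1 and FUCA1 lay between 0.03 and 0.21, LPIN1 at -0.07, CPT1C at -0.15 and SCO2 at -0.32. TP53I3, the quinone oxidoreductase PIG3, read 7.56 and 7.78 in DMSO and 8.35 and 7.88 with Nutlin in sh-p53, a difference of 0.44 against 3.50 in sh-con. ABCA12, a lipid transporter, stayed between 3.82 and 3.95, under the dim level, in all 4 sh-p53 arrays, while it rose by 3.91 in sh-con.

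In the group of membrane, secreted and other targets (22 tested, median 0.20) SPATA18 was the one call. CYFIP2, an actin regulator, differed by 0.68 and ANKRA2 by 0.57, without reaching the threshold. TRIM22, an interferon- and p53-responsive ubiquitin ligase, read 4.02 and 4.03 in DMSO and 4.66 and 4.26 with Nutlin (0.43), against a rise of 3.14 in sh-con. PLTP, the phospholipid transfer protein, read 7.29 and 7.20 against 7.36 and 7.0 (-0.06), where sh-con rose by 3.51. The stem cell factor gene KITLG differed by -0.41 (5.62 and 5.91 in DMSO, 5.40 and 5.32 with Nutlin) and the other 16 lay from -0.27 to 0.37.

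The regulators and relatives of p53 showed no call among 13 tested, against 0.0796% of all genes. At unadjusted p under 0.05, 0 were higher and 0 lower, against 2.14% and 4.08% of all genes. Counts of 0 among 13 genes are near these shares. Both Nutlin arrays were above both DMSO arrays in 2 and below in 5, against 14.2% and 20.7% of all genes. The median was -0.14, and it was 0.0033 without Nutlin array 2. MDM4, the MDM2 relative that blocks the p53 transactivation domain, differed by 0.01 (6.99 and 7.23 in DMSO, 7.30 and 6.93 with Nutlin), against a rise of 1.01 in sh-con. The deubiquitinase gene USP7 differed by -0.14, the kinase gene ATM by 0.05, CHEK2 by -0.28, TP53BP1 by -0.30 and EP300 by -0.23. HIPK2, BRD7, KAT5, CDKN2A, COP1, TP73 and RCHY1 lay between -0.23 and 0.19.

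**Figure D3:**
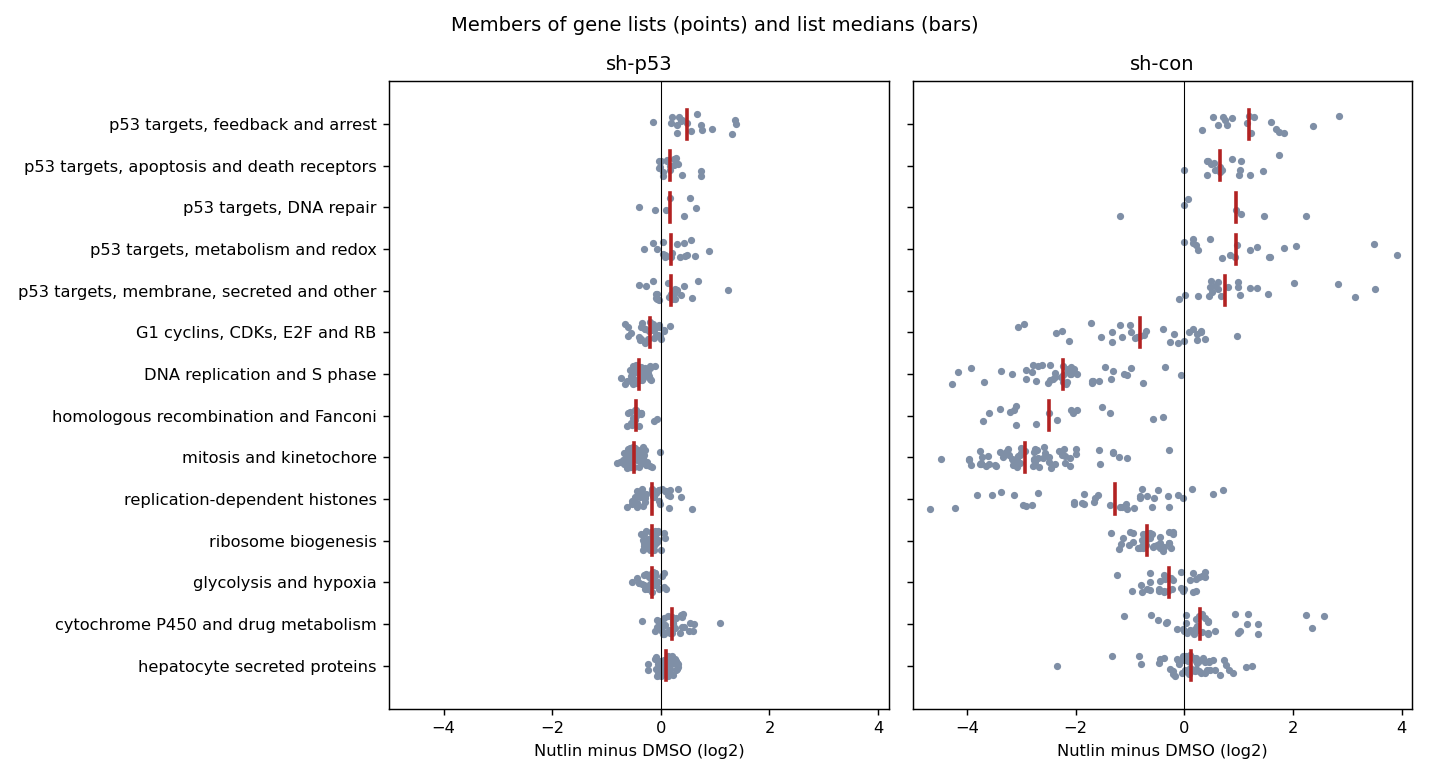
Difference between Nutlin and DMSO (log2) for each tested member of 14 gene lists, in sh-p53 (left) and sh-con (right) on the same scale. Points are genes, spread vertically at random, and red bars are list medians; in sh-p53 the p53 target medians lie between 0.16 and 0.48 and the medians of the replication, recombination and mitosis lists between -0.50 and -0.41.

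Proliferation genes lay on the other side. None of them was called by limma in sh-p53 with the spread pooled over all groups, and the replication, recombination and mitosis genes tested all lay below DMSO at the group means. All 65 mitosis and kinetochore genes tested had a negative difference, with a median of -0.50 and a range from -0.80 to -0.02. Both Nutlin arrays lay below both DMSO arrays in 60 of the 65, against 20.7% of all genes, and 53 had an unadjusted p under 0.05, against 4.08% of all genes in that direction. All 45 genes of DNA replication and S phase were also negative (median -0.41, both Nutlin arrays below in 41, 35 at unadjusted p under 0.05). The same held for all 17 genes of homologous recombination and the Fanconi pathway (median -0.46, 16 and 14). These lists share arrays and their members move together, so the counts are not those of independent genes.

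The genes named next were chosen after their values were seen. KIF4A, a chromosome-bound kinesin, read 9.16 and 9.12 in DMSO and 8.47 and 8.30 with Nutlin (difference -0.75 ± 0.16, limma adjusted p = 0.12). MKI67, the Ki-67 proliferation antigen, read 9.30 and 9.11 against 8.47 and 8.58 (-0.68, limma adjusted p = 0.12). KIF15 had the most negative difference of the mitosis list at -0.80, with 7.23 and 7.48 against 6.78 and 6.32. In none of these did the arrays overlap. The mitotic kinase gene CDK1 differed by -0.64, the kinetochore gene NDC80 by -0.69, and AURKA and CDC20 by -0.20 and -0.16.

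Upstream of these, the G1 and E2F list was less uniform, with 27 of 31 negative, a median of -0.21, both Nutlin arrays below in 16 (20.7% of all genes) and 7 at unadjusted p under 0.05 (4.08%). FOXM1, the transcription factor of G2 and mitosis genes, read 8.76 and 8.48 in DMSO and 7.92 and 8.0 with Nutlin (-0.66, limma adjusted p = 0.117). MYBL2, the B-Myb subunit of the activating MuvB complex, read 9.34 and 9.30 against 8.80 and 8.61 (-0.61, limma adjusted p = 0.152). The repressor gene E2F8 differed by -0.60, CDK2 by -0.36 and RB1 by 0.06. Among replication genes, MCM10, which loads factors onto the replicative helicase, read 8.39 and 8.57 against 7.89 and 7.62 (-0.73, limma adjusted p = 0.102). CDC45, a helicase subunit, differed by -0.63, and TYMS, thymidylate synthase, by -0.19. The recombination gene RAD54L read 7.90 and 7.75 against 7.14 and 7.27 (-0.63).

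Replication-dependent histone genes were mixed. Of 38 tested, 28 had a negative difference, the median was -0.16, and both Nutlin arrays lay below in 15, against 20.7% of all genes. Both lay above in 4, or 10.5%, a smaller share than the 14.2% of all genes. H2BC14 read 10.77 and 10.74 in DMSO and 10.25 and 10.02 with Nutlin (-0.62), while H3C10 lay on the other side at 0.57. Histone genes are near-identical copies, so probe sets of different members can share signal.

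In sh-con 64 of the 65 mitosis genes were called lower (median -2.94), 44 of 45 replication genes (median -2.23) and 17 of 17 recombination genes (median -2.49), against 18.9% of all genes. The difference between the lines was called for 63, 40 and 15 of them, each time with the less negative value in sh-p53, against 4.67% of all genes called in that direction. For histones the called differences were 23 of 38 and for the G1 and E2F list 13 of 31.

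**Figure D4:**
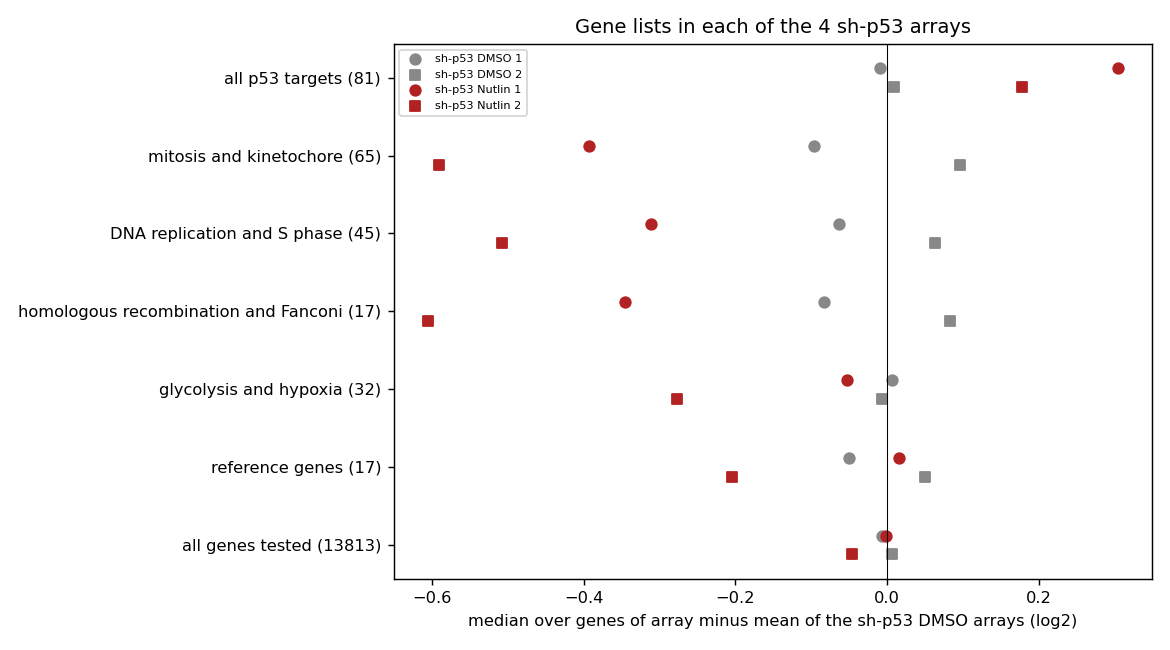
Median over the tested members of each list of the value in 1 array minus the mean of the 2 sh-p53 DMSO arrays (log2), for the 4 sh-p53 arrays; numbers of genes stand in parentheses. Grey is DMSO and red Nutlin, circles are array 1 and squares array 2; for mitosis genes the Nutlin arrays lie at -0.39 and -0.59 and the DMSO arrays at -0.10 and 0.10, and for p53 targets the Nutlin arrays lie at 0.30 and 0.18.

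The Nutlin arrays differed in how far each list moved. The median deviation of the mitosis genes from the sh-p53 DMSO mean was -0.39 in Nutlin array 1 and -0.59 in array 2, against -0.10 and 0.10 in the DMSO arrays. For the p53 targets it was 0.30 and 0.18, so array 1 was the further of the pair for the targets and array 2 for the mitosis genes. In array 2 the 17 reference genes also lay at -0.20, against 0.02 in array 1, and the glycolysis and hypoxia genes at -0.28 against -0.05; the part of this array's overall shift in the lists was not tested. Without array 2 the mitosis median was -0.39 and without array 1 it was -0.59.

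Promoters of the proliferation genes are shown because the 65 mitosis genes tested all lay below DMSO at the group means, with none called. The CHR element (TTTGAA) and the CCAAT box were searched on both strands in the 300-base windows. A CHR stood in 58% of the 69 windows of mitosis genes, 3.7% of the 54 of replication genes and 15.2% of all 35116, and a CCAAT box in 71%, 51.9% and 34.6%. Both stood in 44.9%, 1.85% and 5.9%. MKI67 and KIF4A were picked from the mitosis genes with a window that held both, so the presence of both motifs in them is by choice. Among those genes they were taken for their low limma p in sh-p53, so their fall is by choice too. The stretches here are the 150 bases before the start of MKI67 (chr10:128126424-128126573, minus strand) and KIF4A (chrX:70289954-70290103, plus strand), with CHR and CCAAT letters on either strand in capitals (ATTGG is CCAAT read on the other strand). In MKI67 a CHR and an ATTGG overlap and form 1 run of capitals.
MKI67: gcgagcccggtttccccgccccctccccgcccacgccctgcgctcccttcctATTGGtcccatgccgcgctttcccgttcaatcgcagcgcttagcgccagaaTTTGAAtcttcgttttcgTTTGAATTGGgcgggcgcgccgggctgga
KIF4A: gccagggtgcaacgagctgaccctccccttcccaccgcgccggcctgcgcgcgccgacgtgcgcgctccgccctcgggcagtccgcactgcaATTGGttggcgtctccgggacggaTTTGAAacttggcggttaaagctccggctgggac
These are shares of windows, and several windows can belong to 1 gene.

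The genes called at least 2-fold in sh-con mostly lay on the same side in sh-p53. Of 257 called higher there (1.86% of all genes, median 1.30), 232 had a positive difference in sh-p53, 90.3% against 46.0% of all genes, with a median of 0.22. Of 576 called lower there (4.17%, median -1.56), 562 were negative in sh-p53, 97.6% against 54.0% of all genes, with a median of -0.36. The lines share no arrays in these responses. In sh-p53, 10 of the 257 were called higher, against 0.0796% of all genes. Of the 576, 0 were called lower, which was also the count over all genes tested. Both Nutlin arrays lay below both DMSO arrays in 423 of the 576 (73.4%), against 20.7% of all genes. Of the 11 genes called in sh-p53, 10 were in the 2-fold sh-con list, and SULT2A1 was just short of it at 1.99-fold.

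Over all genes the response differed between the lines for 1022 (7.4%), of which 645 were higher in sh-p53 minus sh-con (4.67%) and 377 lower (2.73%). All but 1 of them were called in sh-con, the exception being METRNL, a secreted factor, which differed by -0.39 in sh-p53 and 0.44 in sh-con. No gene was called in opposite directions in the 2 lines. The 10 genes with the most negative differences rose by 3.11 to 3.91 in sh-con and lay between -0.06 and 0.59 in sh-p53. Of these, ABCA12, LYVE1, CLTRN, FRMPD2 and TRIM22 had sh-p53 means under the dim level of 4.58 in both treatments. The filter took the mean over all 12 arrays, so a gene dim in sh-p53 passed it where other groups were brighter. The size of their sh-p53 response is therefore uncertain. The 10 with the most positive ones, replication, kinetochore and histone genes, fell in sh-con and lay between -0.62 and 0.03 in sh-p53.

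Outside the p53, proliferation and cell marker lists, 22 of 23 lists held no call in sh-p53, where 0.0796% of all genes were called. The exception was drug metabolism, through SULT2A1. Among the marker lists, that of fibroblasts and stellate cells held the call of ACTA2. Of its 36 genes tested, 9 were higher at unadjusted p under 0.05 and 0 lower (2.14% and 4.08% of all genes), both Nutlin arrays were above in 19 (14.2% of all genes), and the median was 0.20. Some of the 19 read close to the dim level of 4.58, among them CYP2E1 and CYP1A2, with sh-p53 DMSO means of 4.61 and 4.80. CYP3A5 read 5.45 and 5.69 in DMSO and 6.28 and 6.09 with Nutlin (0.61, limma adjusted p = 0.278), CYP24A1, which inactivates vitamin D, differed by 0.60 and ADH4 by 0.53, the last 3 named after their values were seen. Secreted hepatocyte proteins had a median of 0.10 over 54 genes, which ran from 0.01 to 0.21 with 1 array left out. Both Nutlin arrays were above in 17 and below in 0, against 14.2% and 20.7% of all genes. On the negative side lay ribosome biogenesis (39 genes, median -0.16, 20 below) and purine and pyrimidine synthesis (26 genes, -0.13, 12 below). So did glycolysis and hypoxia (32 genes, -0.15, 19 below) and TGF-beta, WNT and Notch targets (26 genes, -0.16, 12 below). With 1 array left out these medians ran from -0.23 to -0.085, -0.23 to -0.05, -0.28 to -0.05 and -0.18 to -0.14, in that order. The remaining lists, which cover lipid and glucose metabolism, stress responses, transport, inflammation, growth factors and respiration, had medians between -0.09 and 0.11, and most of these medians changed sign under at least 1 alternative.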

How the data were processed

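The arrays were Affymetrix expression arrays, 1 per sample, made from total RNA. The authors deposited log2 values, and the submitters' processing notes name RMA and Partek, with no version or setting that could be stated here. The method brings arrays to a common distribution, so a change shared by most genes is removed in part, and dim values hold mostly background, which compresses their differences. Depth has no counterpart here, and the number of arrays limits precision.

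Groups came from the array titles. Of 33297 probe sets, 19460 had 1 symbol, 1754 several and 12083 none in the platform annotation; 19429 of the first matched the RefSeq table. The brightest probe set stood for a gene, and the 4604 genes under the 25th percentile were left out. A group-means model over 12 arrays was fitted in limma 3.58.1 (R 4.3.3), with empirical Bayes variances (6 residual and 11.3 prior degrees of freedom). The spread between duplicates is thus pooled over 6 groups, and p-values set a difference of group means against it. Errors are SE and intervals are 95%. The script was tested on simulated data. The level of the hairpin's target is not reported here.

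Members, lists and tests were chosen with earlier results of these data known. Named are the up to 15 highest and lowest called genes with non-overlapping arrays, called list members, all p53 targets and regulators, and the 10 highest and lowest differences between the lines; others are said to be chosen after their values were seen. Alternatives covered the filter, scaling, gene value, arrays in the fit, variance prior, replicate block, single arrays left out and a 2-fold minimum.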

Additional observations from a re-analysis of the deposited data

Results flagged for a closer look

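These genes responded differently to Nutlin in the 2 lines by the interaction test in limma (called difference, sh-p53 minus sh-con, log2). Among the genes called in sh-p53 the differences were -1.45 for CDKN1A, -1.01 for TP53INP1, -0.85 for ACTA2, -1.93 for CYGB, -0.79 for ZMAT3, -1.57 for SULF2 and -2.52 for MR1.

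The 10 most negative differences were -3.83 for ABCA12, -3.57 for the phospholipid transfer protein gene PLTP, -3.45 for the hyaluronan receptor gene LYVE1, -3.35 for CLTRN (collectrin), -3.26 for CSTA (cystatin A), -3.08 for LCN15, -3.05 for TP53I3, -2.97 for FRMPD2, -2.96 for the protease inhibitor gene SERPINE2 and -2.71 for TRIM22. In sh-p53 the means of ABCA12, LYVE1, CLTRN, FRMPD2 and TRIM22 lay under the dim level of 4.58 in both treatments, so the size of their response there is uncertain.

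The 10 most positive differences belonged to proliferation genes: 4.07 for H2BC14, 3.91 for SPC25, 3.74 for CLSPN, 3.70 for H2AC4, 3.68 for CDC6, 3.61 for DTL, 3.59 for PBK, 3.50 for H3C2, 3.39 for H2BC7 and 3.34 for NUF2. CDC6 loads the replicative helicase, CLSPN is the checkpoint adaptor claspin, and SPC25 and NUF2 are subunits of the outer kinetochore.

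METRNL differed by -0.83, the one called difference without a call in either line. DIO1, the deiodinase that activates thyroid hormone, differed by 1.44: it read 6.54 and 7.14 in DMSO and 7.60 and 7.32 with Nutlin in sh-p53 (0.62, limma adjusted p = 0.368) and fell by 0.81 in sh-con. CEP128, a centriole protein and the lower gene nearest the threshold in sh-p53, differed by 1.31.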

How the results depend on the processing

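The sh-p53 count of 11 higher and 0 lower genes became 29 higher and 38 lower when only the sh-p53 DMSO and Nutlin arrays entered the fit, 16 and 12 when genes under the 50th percentile were left out, 16 and 10 with an intensity trend and robust prior, 13 and 1 after quantile normalisation again, and 7 and 0 at a 2-fold minimum. The first 3 of these kept all 11 genes. Of the 38 lower genes 17 were in the cell cycle lists, and FOXM1, KIF4A, MCM10 and MKI67 were called lower under 3 settings. With single arrays left out the count was 5 to 9 higher and 0 lower. Differences between the lines, 645 higher and 377 lower, became 692 and 585 after quantile normalisation again (54.2% higher against 63.1%) and 392 and 174 at a 2-fold minimum, and ran from 411 to 695 and from 233 to 321 with single arrays left out. The alternatives for sh-con were chosen after seeing the data: 257 and 576 at a 2-fold minimum, 737 to 1168 and 1324 to 2262 with single arrays left out, the higher share 37.4%, 45.6% after quantile normalisation again and 28.3% with arrays centred. The cause of these changes was not tested.

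The fit with the replicate number as a replicate block gave 12 higher genes, the 11 among them, and 0 lower. Same-numbered samples share a number only: deviations of same-numbered arrays correlated from -0.558 to 0.567 between groups, and at -0.38 between sh-p53 DMSO and Nutlin. No called difference of a named gene changed sign under the alternatives run, while 30 uncalled ones did. With the cell marker lists left aside, the sh-p53 median changed sign under at least 1 of 6 alternatives for 14 lists. These were the p53 regulators (-0.14, and 0.0033 without Nutlin array 2) and 13 lists outside the p53 and proliferation ones, whose medians lay from -0.09 to 0.07.

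Duplicates allow a gene to be called in sh-p53 only at a difference several times its SE, whose median was 0.15, so changes the size of the proliferation list medians were mostly not detectable. A count of 0 lower genes is therefore not a measure of absent change.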

Other observations

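A few genes, all but HEY1 and NR0B2 outside the lists, lay near the threshold in sh-p53 and were chosen after their values were seen. CEP128 read 7.57 and 7.62 in DMSO and 6.88 and 6.67 with Nutlin (difference -0.82, limma adjusted p = 0.0683), against -2.13 in sh-con. CIT, the citron kinase of cytokinesis, differed by -0.75, CKAP2L, a spindle protein, by -0.74, and TICRR, which starts DNA replication, by -0.71, against -2.56, -2.45 and -3.47 in sh-con. HAUS1, of the augmin complex, differed by -0.73 and -1.60. EMC3-AS1, an antisense transcript, read 7.22 and 7.12 in DMSO and 6.52 and 6.48 with Nutlin (-0.67), against -1.08 in sh-con. HEY1, a Notch target, read 7.62 and 7.79 against 7.17 and 6.74 (-0.75), against -0.33 in sh-con. On the other side, TRIM50 read 6.09 and 6.22 against 6.93 and 6.79 (0.70), with 0.62 in sh-con, and NR0B2, the nuclear receptor SHP that represses bile acid synthesis, read 9.20 and 9.34 against 10.04 and 9.74 (0.62), with 1.36 in sh-con. None of these was called in sh-p53 with the spread pooled over all arrays. Under the alternative settings limma called EMC3-AS1 lower in 4, CEP128, CIT, CKAP2L and TICRR in 3 each, HEY1 in 2 and HAUS1 in 1, and TRIM50 and NR0B2 higher in 2 each.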
